A study of Homo sapiens with 4 samples.

Results

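Homologous recombination repairs broken DNA and stalled replication forks by copying an intact sister sequence, and the Fanconi anaemia proteins bring the same machinery to crosslinks between the strands. In outline, a break is sensed and cut back to single-stranded DNA, BRCA1, PALB2 and BRCA2 prepare it for strand exchange, and helicases and nucleases take the joined molecules apart. A3B (APOBEC3B) is a DNA cytidine deaminase that acts on single-stranded DNA and prefers a cytosine preceded by thymine, written TC on the deaminated strand and GA on its complement.

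The 38 genes described here encode proteins of homologous recombination and of the Fanconi pathway, out of 20033 protein-coding genes annotated on chromosomes 1 to 22, X and Y. They were taken by name, not by any measured value, and a peak was counted for a gene where it overlapped the annotated gene body extended by 3 kb on either side, called the window below. The windows of the 38 genes held 76 of the 56167 A3B peaks of OMM2.3 and 254 of the 136678 of 92.1.

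OMM2.3 and 92.1 are human uveal melanoma cell lines, grown in the same medium with no treatment given in the labels. In each line, chromatin crosslinked with formaldehyde and sheared was immunoprecipitated with an antibody against A3B or with normal rabbit IgG, and the DNA was sequenced. Each line contributed 1 A3B library and 1 IgG library, and peaks were called in the A3B library against the IgG library of the same line. A peak is a stretch with more A3B fragments than the local IgG background at a p of at most 0.05, and its summit, the highest point, carries a fold enrichment, a p-value, given as −log10 p, and a q-value adjusted over the genome. With 1 library per group and no cells lacking A3B among the samples analysed here, neither a difference between the lines nor the specificity of a peak has a replicate check, and no test was made. Intervals given below are 95% intervals. Those of shares and peak counts cover counting error only, and those of GC content cover the spread over peaks of 1 library, which are not independent replicates.

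The stretches shown first are those on which the description turns. The first is the part of RAD51B at which peaks of both lines overlapped, and the others are the summits of the highest −log10 p at XRCC2 and at RAD51C with 100 bp on either side, all read from GRCh38 on the plus strand. Capitals mark TC and GA.

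RAD51B, both lines, chr14:68689856-68690018: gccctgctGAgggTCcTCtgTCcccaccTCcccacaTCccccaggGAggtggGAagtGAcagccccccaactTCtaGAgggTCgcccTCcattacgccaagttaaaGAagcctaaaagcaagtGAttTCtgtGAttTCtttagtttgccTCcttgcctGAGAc

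XRCC2, 92.1, chr7:152658452-152658652: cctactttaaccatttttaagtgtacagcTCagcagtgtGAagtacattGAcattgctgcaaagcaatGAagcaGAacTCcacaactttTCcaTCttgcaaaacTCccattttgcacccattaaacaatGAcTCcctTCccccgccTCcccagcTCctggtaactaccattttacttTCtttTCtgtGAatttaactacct

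RAD51C, OMM2.3, chr17:58708360-58708560: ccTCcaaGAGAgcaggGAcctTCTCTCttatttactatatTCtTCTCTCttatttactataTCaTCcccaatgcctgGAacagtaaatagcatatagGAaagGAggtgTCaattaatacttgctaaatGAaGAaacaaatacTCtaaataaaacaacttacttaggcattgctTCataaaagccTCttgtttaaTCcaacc

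TC and GA pairs made up 13.0% of the dinucleotides of the RAD51B stretch, against 11.96% over the whole window of the gene. The share was lower than in the gene's own window at XRCC2 (8.5%, window 11.3%) and nearly the same at RAD51C (11.5%, window 11.2%). The 3 stretches thus lay on both sides of their genes' own shares of the letters A3B prefers, and none overlapped an annotated UTR.

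A3B peaks lay at most of the 38 genes, in about the proportion found at other genes of their length. In OMM2.3, 22 of 38 genes had at least 1 peak (57.9%, Wilson interval 42.2% to 72.1%), and 50.5% of all protein-coding genes did. In 92.1, 33 of 38 had a peak (86.8%, interval 72.7% to 94.2%), and 73.6% of all protein-coding genes did. Genes of this group are long, with a median window of 77.99 kb against 33.5 kb for protein-coding genes, and long windows meet more peaks. When protein-coding genes were weighted by 10 classes of window length to match the 38, 60.7% had a peak in OMM2.3 and 83.6% in 92.1. The 38 genes differed from genes of like length by −2.815 percentage points in OMM2.3 (interval −18.5 to 11.4) and by 3.25 points in 92.1 (interval −10.9 to 10.65), so neither line departed from the level that length gives by more than counting error.

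**Figure D1:**
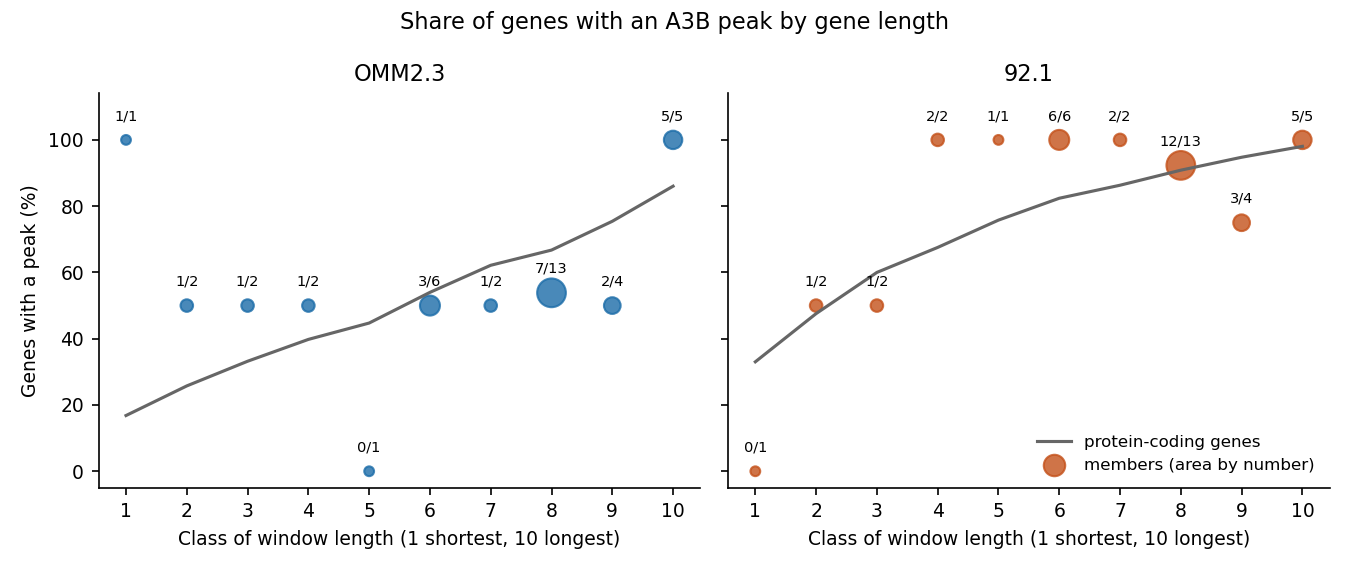
Share of genes with at least 1 A3B peak (y axis, percent) in 10 classes of window length (x axis, shortest to longest) in OMM2.3 (left) and 92.1 (right). The grey line is all protein-coding genes, and circles are the 38 genes, with area by number and the genes hit of the genes in the class written above. The share rises with length in both lines, and the 5 longest of the 38 genes all had a peak in each line.

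Both lines had a peak at 20 of the 38 genes (52.6%), against 43.7% of protein-coding genes and 55.8% of genes of like length. Peaks were found at 13 genes in 92.1 without OMM2.3 (34.2%, against 29.9% of protein-coding genes) and at 2 in OMM2.3 without 92.1 (5.26%, against 6.72%), the nuclease gene MUS81 and the Fanconi core gene FANCF. Neither line had a peak at ATM, DNA2 or FANCG, 3 genes of 38 (7.89%, interval 2.72% to 20.8%), where 19.6% of protein-coding genes had none. The shares for peaks in a single line or in neither were not matched for length, and long windows meet more peaks. Peaks per 100 kb in OMM2.3 and in 92.1 had a Spearman's rho of −0.056 across the 38 genes, which share their library within each line.

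The number of peaks was set beside the level around each gene. The flank level of a gene is the peak density of the same list between 50 and 500 kb away on either side, multiplied by the length of the window, and it absorbs differences between chromosomes. The windows of the 38 genes together held 76 peaks in OMM2.3 where the flank level was 98.0, a ratio of 0.775 (interval 0.611 to 0.9705). In 92.1 they held 254 where the flank level was 238, a ratio of 1.07 (interval 0.941 to 1.21). The ratio over all protein-coding genes was 0.952 in OMM2.3 and 1.01 in 92.1. Of the 38 genes, 9 lay above their flank level and 29 below it in OMM2.3, where 33.7% of protein-coding genes lay above theirs. In 92.1, 19 lay on each side, and 45.1% of protein-coding genes lay above.

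The lower count of OMM2.3 depended on how the surroundings were taken. When all peaks were instead moved together by 20 fixed distances of 50 to 500 kb in both directions, the windows held 74 to 108 peaks (mean 92.1) in OMM2.3, a ratio of 0.825 with an interval that included 1, and 220 to 260 (mean 239) in 92.1. The moved peaks hit 19 to 27 of the 38 genes in OMM2.3 and 30 to 35 in 92.1, ranges that contain the 22 and 33 genes hit by the peaks in place. Gene by gene, none of the 38 had more peaks than under every shift in OMM2.3, where 2.05% of protein-coding genes did, and 3 did in 92.1 (BARD1, RAD50 and UBE2T), where 3.11% of protein-coding genes and 3.23% of genes of like length did. The 3 genes are 7.89% of the 38 (interval 2.72% to 20.8%, which includes the share of other genes). Across the 38 genes, peaks per gene had a rho of 0.718 with the flank level in OMM2.3 and 0.823 in 92.1, and of 0.381 and 0.636 with the length of the window.

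**Figure D2:**
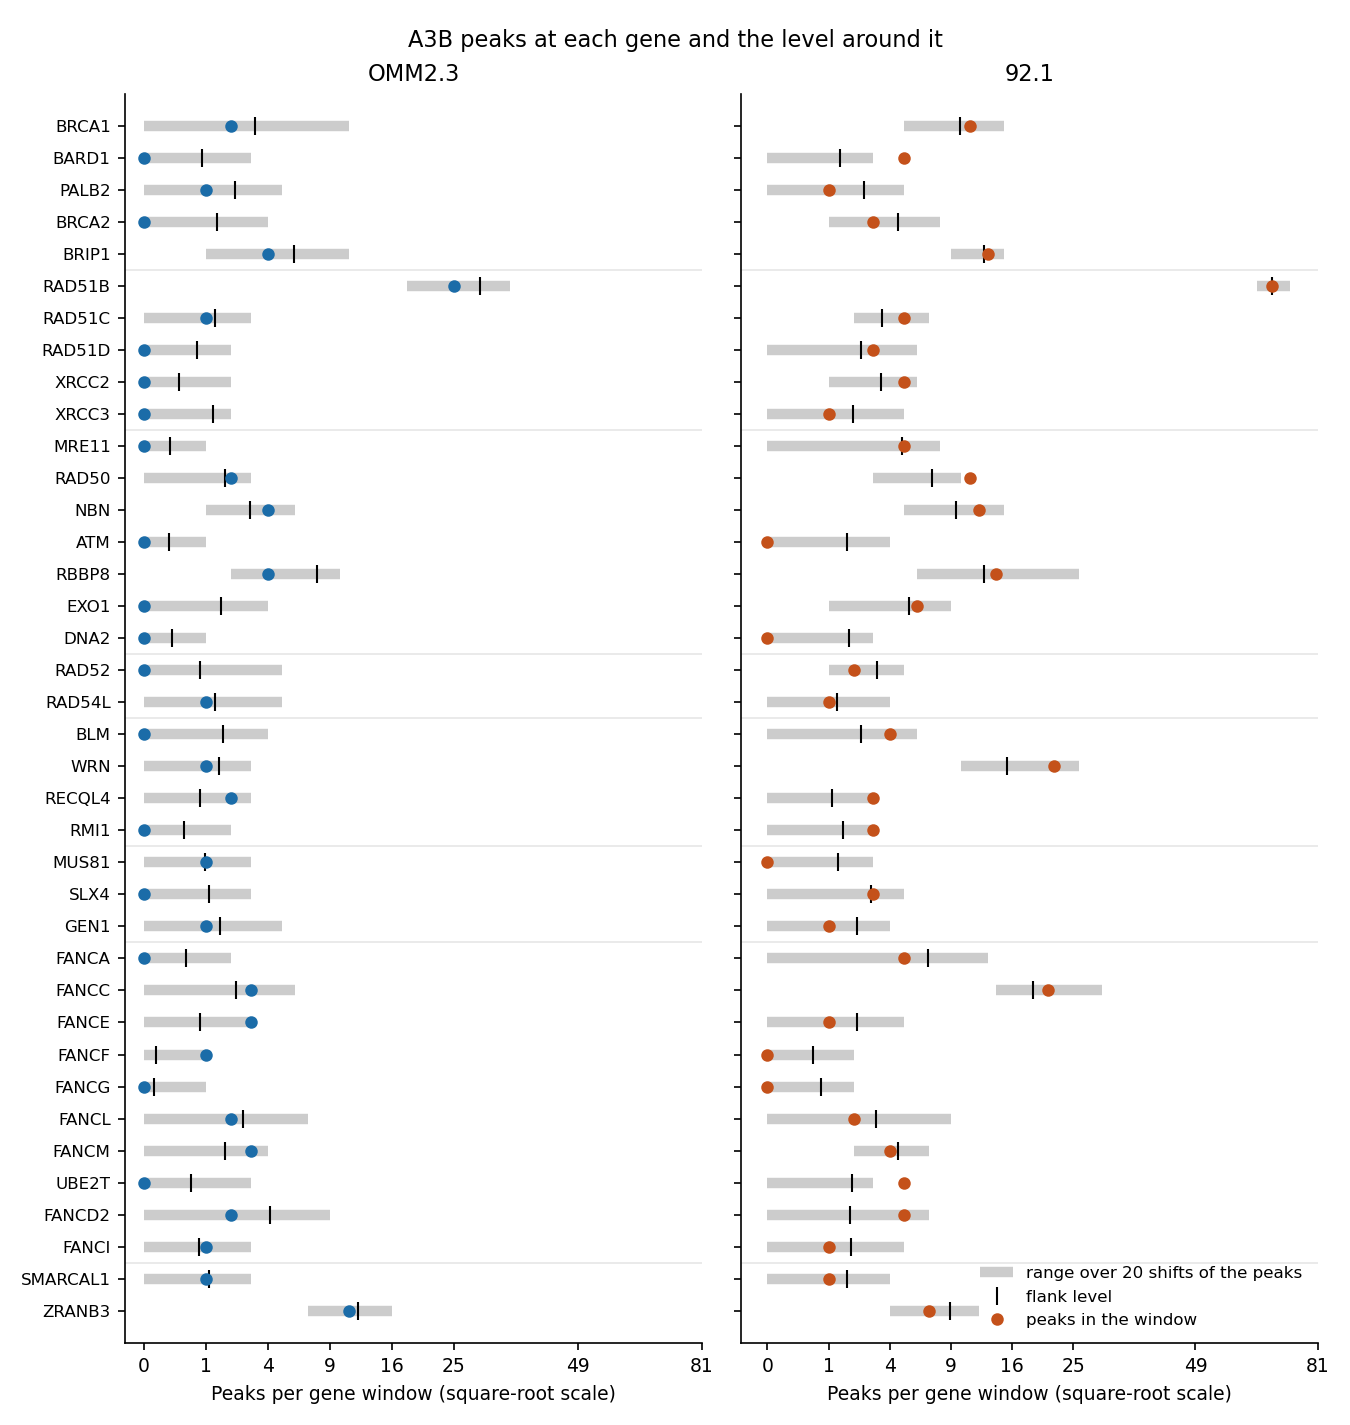
Peaks in the window of each of the 38 genes (x axis, square-root scale), by role from top to bottom, in OMM2.3 (left) and 92.1 (right). Points are the peaks counted, black ticks the flank level and grey bars the range over 20 fixed shifts of all peaks. No gene left its bar in OMM2.3, and 3 of the 38 lay above theirs in 92.1, against 2.05% and 3.11% of protein-coding genes.

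Of the 5 genes of the BRCA1, PALB2 and BRCA2 axis, 3 had a peak in OMM2.3 and 5 in 92.1. Peaks moved by the shifts hit 2 to 5 of them (mean 4) in OMM2.3 and 4 to 5 (mean 4.75) in 92.1. BRCA1 (GRCh38 chr17:43044295-43170245), which with BARD1 forms a ubiquitin ligase that directs breaks into recombination, had 2 peaks in OMM2.3 and 11 in 92.1, beside flank levels of 3.23 and 9.97. Its partner BARD1 had 0 and 5 peaks beside flank levels of 0.9 and 1.4, with 0 to 3 over the shifts in 92.1. PALB2 (chr16:23603160-23641321), the bridge between BRCA1 and BRCA2, had 1 peak in each line, in intron 10 of its canonical transcript in both, with repeated sequence under 77.65% and 86.5% of the 32-mers at the summits. BRCA2 (chr13:32315086-32400268), which acts at the resected single-stranded DNA, had 0 peaks in OMM2.3 and 3 in 92.1, beside flank levels of 1.42 and 4.56. BRIP1, a helicase that binds BRCA1, had 4 and 13 peaks beside flank levels of 5.92 and 12.5. In OMM2.3 all 5 genes lay below their flank level, at a joint ratio of 0.514 (interval 0.207 to 1.06). In 92.1 the joint ratio was 1.07 (0.735 to 1.499).

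The BRCA1 window held the member peak of the highest −log10 p in 92.1. The summit lay in intron 6 of the canonical transcript, 25.2 kb from its start. Its −log10 p was 5.13, its enrichment over the IgG background 4.09-fold and its q-value 0.256, and it rested on 7 A3B fragments. Of the 11 BRCA1 peaks of 92.1, 5 lay in the annotated gene beyond the 5′ end of the canonical transcript, and in 5 at least 50% of the 32-mers around the summit occurred elsewhere in the genome. The 2 peaks of OMM2.3 lay in introns 14 and 11 and overlapped none of those of 92.1.

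RAD51B, RAD51C, RAD51D, XRCC2 and XRCC3 are related proteins that assist strand exchange and protect stalled forks. RAD51B (chr14:67819779-68730218), the longest gene of the group at 910 kb, alone held 25 of the 76 peaks in OMM2.3 and 68 of the 254 in 92.1. Its flank levels were 29.5 and 68.2, so that per length it matched its surroundings in 92.1 and lay below them, within counting error, in OMM2.3. In 92.1 the peaks were spread evenly along the gene body, with 24 in the 5′ part, 21 in the middle and 22 in the 3′ part of equal length, and the corresponding counts in OMM2.3 were 5, 8 and 12. Without RAD51B, the other 37 genes stood at 0.745 times their flank level in OMM2.3 (interval 0.554 to 0.979) and at 1.10 times in 92.1.

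Of the other paralogs, RAD51C had 1 peak in OMM2.3 and 5 in 92.1, RAD51D 0 and 3, XRCC2 0 and 5, and XRCC3 0 and 1. XRCC2, with flank levels of 0.333 and 3.45 peaks, was the densest of the 5 paralogs in 92.1 at 13.4 peaks per 100 kb. Its 5 peaks lay within the range over the shifts (1 to 6). Of the 5, 4 had a p of at most 0.001, beside 25.2% of all member peaks of 92.1 and 27.2% of peaks at protein-coding genes. The strongest XRCC2 peak, printed above, lay in intron 2 and reached a −log10 p of 4.74 at 3.84-fold enrichment, on 7 fragments. The RAD51C peak of OMM2.3, also printed, lay in intron 4 with a −log10 p of 3.94, and repeated sequence made up 59.4% of its 32-mers. All 5 paralogs lay below their flank level in OMM2.3, and 3 lay above it in 92.1.

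**Figure D3:**
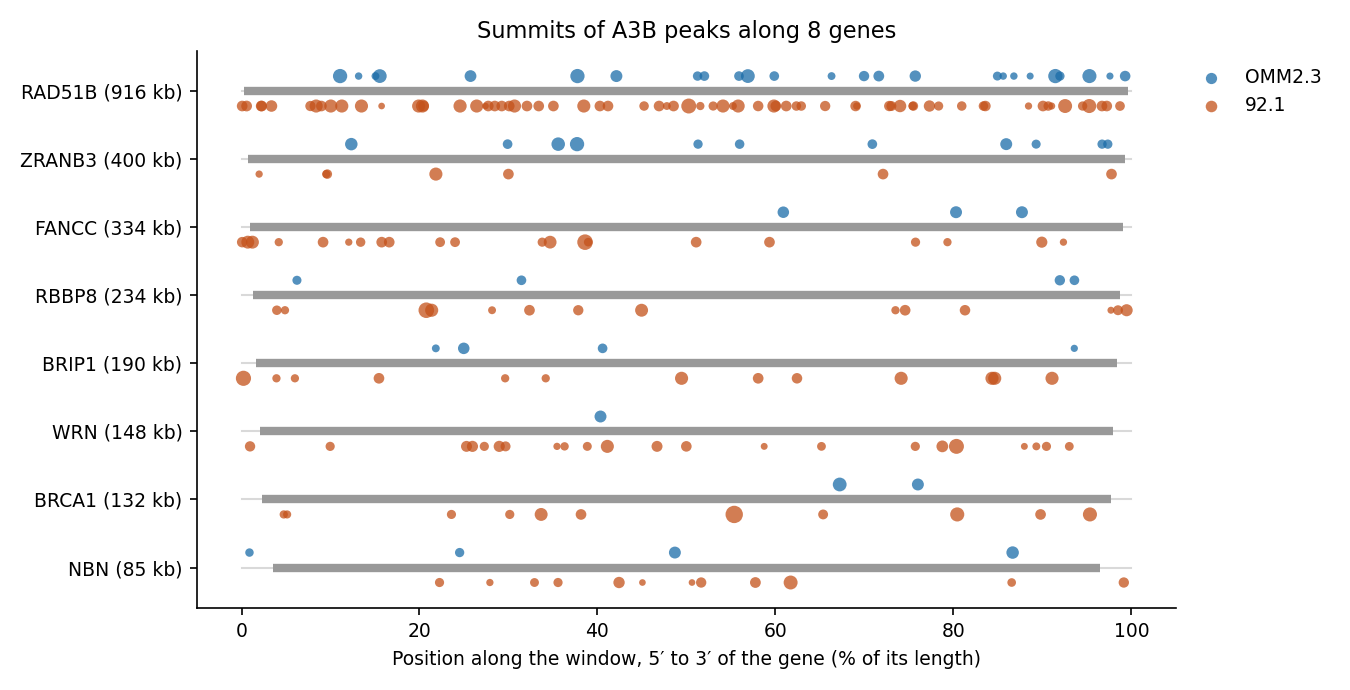
Summits of A3B peaks along 8 of the genes, with position given from the 5′ to the 3′ end of the window (x axis, percent of its length), OMM2.3 above each bar and 92.1 below it. Thick bars are gene bodies, thin lines the 3 kb extensions, and larger points have a higher −log10 p. The 68 summits of 92.1 at RAD51B run along the whole gene.

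The genes that sense and resect breaks ranged from no peak in either line to 14.2 peaks per 100 kb in 92.1. MRE11, RAD50 and NBN form the complex that first binds a break end. MRE11 had 0 peaks in OMM2.3 and 5 in 92.1, beside flank levels of 0.187 and 4.87. RAD50 had 2 and 11, beside 1.71 and 7.28, with 3 to 10 over the shifts in 92.1. NBN had 4 and 12, beside 2.92 and 9.51, which made it the densest of the 3 in both lines at 4.72 and 14.2 peaks per 100 kb. RBBP8 (CtIP), which starts resection with that complex, had 4 and 14 peaks beside 7.81 and 12.5.

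ATM (chr11:108223044-108369102), the kinase that signals breaks, had no peak in either line although its window spans 152 kb. Its surroundings were also sparse, with flank levels of 0.169 and 1.69, and a count of 0 allows up to 3.69 peaks. DNA2, a nuclease of long-range resection, likewise had 0 and 0 beside 0.214 and 1.78, while EXO1, the other such nuclease, had 0 and 6 beside 1.54 and 5.38. RAD52, which anneals strands, had 0 and 2 peaks, and RAD54L, a motor that assists strand exchange, had 1 in each line.

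The RecQ helicases unwind joined and stalled structures, and RMI1 works with BLM in dissolving double junctions. WRN had 1 peak in OMM2.3 and 22 in 92.1, the widest gap between the lists after RAD51B, beside flank levels of 1.48 and 15.3, and its density was 0.674 and 14.8 peaks per 100 kb. RECQL4, with a window of only 12.6 kb, had 2 and 3 peaks beside 0.837 and 1.12. Its window was the densest of the 38 in OMM2.3 at 15.9 peaks per 100 kb and the next after UBE2T in 92.1 at 23.9. All of these peaks lay in the 3 kb extensions, outside the gene body. Each also lay in the window of another protein-coding gene, so this density cannot be given to RECQL4 alone. BLM had 0 and 4 peaks, and RMI1 had 0 and 3. All 4 lay above their flank level in 92.1, where together they had a ratio of 1.58 (interval 1.078 to 2.225), and 3 of them lay below it in OMM2.3, at 0.686 (0.141 to 2.004). Peaks moved by the shifts gave 12 to 32 in the 4 windows in 92.1, a range that includes the 32 counted.

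WRN, NBN and RECQL4 are on chromosome 8, the chromosome of the highest peak density in 92.1 among those that carry the 38 genes, at 105 peaks per Mb against 26.8 to 61.4 on the others. In OMM2.3 it held 25.3 per Mb, within the range of the others. These 3 genes together had 37 peaks in 92.1 beside a flank level of 26.0 (ratio 1.43, interval 1.004 to 1.965) and 17 to 38 over the shifts, and without them the ratio over the remaining 35 genes was 1.025 (0.893 to 1.17). In OMM2.3 they had 7 beside 5.24. The part of the chromosome's density in the counts of single genes was not tested beyond the flank level.

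The structure-selective nucleases cut joined molecules. MUS81 had 1 peak in OMM2.3 and 0 in 92.1, SLX4, the scaffold that binds several nucleases, had 0 and 3, and GEN1, which resolves junctions, had 1 and 1. Their joint ratios of 0.554 and 0.631 rested on 2 and 4 peaks, with upper bounds of 2 and 1.615.

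The Fanconi genes differed from their flank level by less than counting error in both lines, with joint ratios of 1.12 (interval 0.625 to 1.84) for OMM2.3 and 1.03 (0.752 to 1.39) for 92.1. Of the core complex that attaches ubiquitin at crosslinks, FANCA had 0 and 5 peaks, FANCC 3 and 21, FANCE 3 and 1, FANCF 1 and 0, FANCG 0 and 0 (flank levels 0.027 and 0.757), FANCL 2 and 2, and FANCM, which binds the stalled fork, 3 and 4 (flank levels 1.73 and 4.57). FANCC is the longest of them, with a window of 334 kb, and its 3 and 21 peaks stood beside flank levels of 2.22 and 18.9. FANCE was short and dense in OMM2.3, at 14.45 peaks per 100 kb with all 3 summits within 3 kb of its start. The shifts gave 0 to 3 peaks there, a range that includes the 3 counted. The weakest of the 3 had a −log10 p of 1.32, near the calling threshold. In 92.1 the only FANCE peak lay in intron 9. The flank levels of FANCE were 0.831 and 2.15.

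UBE2T, the ubiquitin-conjugating enzyme of the core complex, had 0 peaks in OMM2.3 and 5 in 92.1, beside flank levels of 0.585 and 1.9. At 30.4 peaks per 100 kb it was the densest of the 38 genes in 92.1, with 0 to 3 peaks over the shifts. Those peaks rested on 4 to 6 fragments each and lay between −3.03 kb (upstream) and 13.2 kb (downstream) from the start. FANCD2 (chr3:10026370-10101932), the protein that receives the ubiquitin, had 2 and 5 peaks beside 4.17 and 1.81, below its flank level in OMM2.3 and above it in 92.1. In each line 1 FANCD2 peak lay over sequence that was mostly repeated, at 85.9% and 92.35% of 32-mers. Its partner FANCI had 1 peak in each line.

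SMARCAL1 and ZRANB3 reverse stalled forks by annealing strands. SMARCAL1 had 1 peak in each line, both in intron 12, without overlap. ZRANB3, the longer of the pair, had 11 peaks in OMM2.3 and 7 in 92.1, beside flank levels of 12 and 8.9. Repeated sequence covered at least 50% of the 32-mers at 7 of the 11 summits and at 3 of the 7.

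Peaks at the same position in both lines were few. Of the 76 OMM2.3 peaks, 4 overlapped a 92.1 peak by at least 1 bp (5.26%, against 3.635% of OMM2.3 peaks at protein-coding genes), and 4 of the 254 overlapped in the other direction (1.575%, against 1.45%). They lay at RAD51B, NBN, RECQL4 and ZRANB3. The RAD51B pair had the highest joint values, with a −log10 p of 3.88 in OMM2.3 and 3.87 in 92.1 on 7 and 6 fragments, no repeated 32-mers at either summit, and a position 870 kb from the canonical start, past the canonical transcript. The ZRANB3 pair, in intron 2, had 2.34 and 2.68, and 72.9% and 95.3% of the 32-mers at its summits were repeated. The NBN pair had 3.30 and 2.02, and the RECQL4 pair, downstream of the gene and also inside the window of MFSD3, had 2.12 and 2.85.

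Each peak rested on few sequenced fragments, and the peaks at the 38 genes did not stand out in height. The median −log10 p was 2.34 in OMM2.3 and 2.68 in 92.1, the same as over all peaks at protein-coding genes, and the median fold enrichment was 2.60 and 2.65. The fragments stacked at a summit, recovered from these values, numbered 4 to 9 (median 6) in OMM2.3 and 3 to 7 (median 4) in 92.1. In OMM2.3, 3 member peaks had 8 or more fragments (3.95%, against 8.52% at protein-coding genes), and in 92.1 none did, where 0.613% did at protein-coding genes. The local background at the summit was at the lowest value of the list for 34.2% and 41.3% of member peaks and for 36.3% and 38.6% of peaks at protein-coding genes, positions where IgG gave no higher local estimate.

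**Figure D4:**
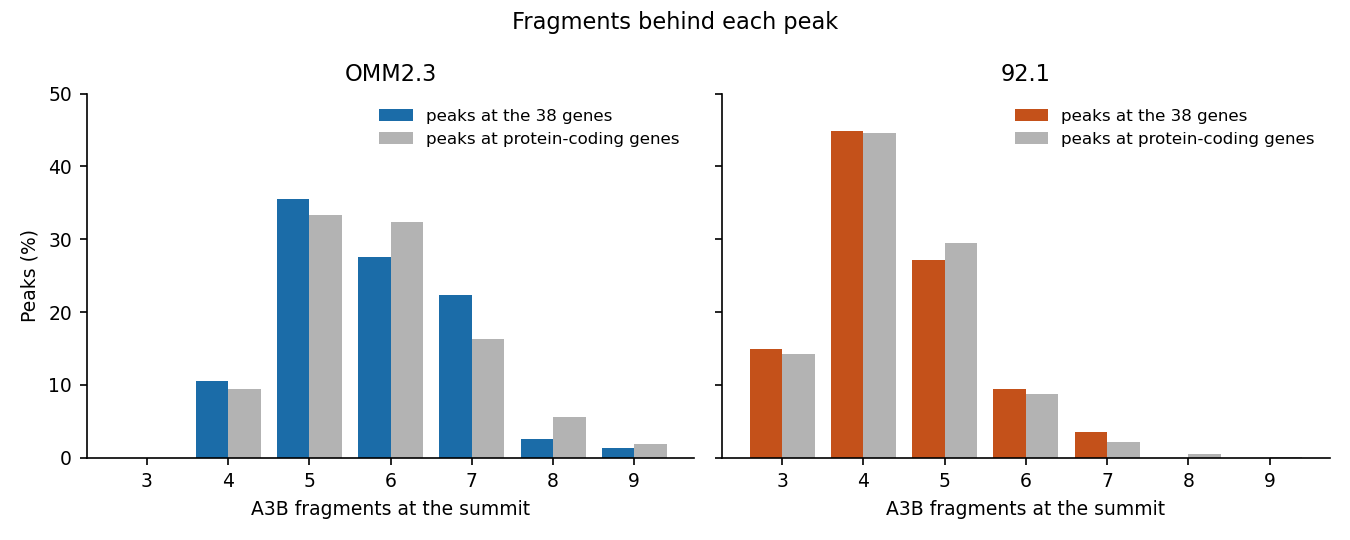
Percent of peaks (y axis) by number of A3B fragments at the summit (x axis) in OMM2.3 (left) and 92.1 (right), for peaks at the 38 genes (coloured) and at all protein-coding genes (grey, drawn up to 9 fragments). The coloured bars end at 9 fragments in OMM2.3 and at 7 in 92.1.

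Under stricter thresholds the counts at the 38 genes fell with those of other genes. A peak with a p of at most 0.001 was present at 14 of the 38 genes in OMM2.3 (36.8%), where 26.7% of protein-coding genes had such a peak, and at 22 in 92.1 (57.9%), where 43.7% did. The difference from genes of like length was 2.66 percentage points in OMM2.3 (interval −10.8 to 18.5) and 2.47 points in 92.1 (−13.2 to 16.7), within counting error. At that threshold 8 genes (21.1%) were hit in both lines, namely BRCA1, RAD51B, RAD51C, NBN, WRN, FANCC, SMARCAL1 and ZRANB3, as were 17% of protein-coding genes and 23.8% of genes of like length. A peak with a q-value of at most 0.05 was present at none of the 38 in either line, which allows a share of up to 9.18%. Such peaks lay at 0.0599% of protein-coding genes in OMM2.3 and at 0.309% in 92.1. All 76 member peaks of OMM2.3 had a q-value of 1, and 20 of the 254 of 92.1 had a lower one, down to the 0.256 of BRCA1.

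The top of each list was held by ties. In OMM2.3, 6 peaks shared the highest −log10 p of 3.94, at RAD51B (3 peaks), RAD51C, FANCF and ZRANB3, each with 7 fragments on the lowest background. In 92.1, after BRCA1 and XRCC2, 6 peaks tied at 4.43, at RAD52, BLM, RBBP8, EXO1, FANCC and FANCI, each with 6 fragments.

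Most peaks lay inside the genes and more than 3 kb from the canonical start. In introns of the canonical transcript lay 50 of the 76 OMM2.3 peaks (65.8%) and 170 of the 254 of 92.1 (66.9%). No OMM2.3 peak and 4 peaks of 92.1 were centred on a coding exon outside the start region, exon 8 of BRIP1, exon 7 of WRN, exon 3 of SLX4 and exon 7 of FANCM. How much of the windows is intron or coding exon, and the same shares at other genes, were not measured. Summits within 3 kb of the canonical start made up 7.89% of the OMM2.3 peaks (interval 3.67% to 16.2%) and 7.09% of those of 92.1 (4.53% to 10.9%), where that region is 5.46% of the windows' length. The corresponding shares at all protein-coding genes, whose windows are shorter, were 9.17% and 9.97%. When the starts of all annotated transcripts of the 38 genes were counted, 30.3% and 26.0% of peaks lay within 3 kb of a start. Those starts cover more of the windows. The length they cover and the same share at other genes were not measured, so these values cannot tell whether peaks gather at starts.

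Counted by gene, 4 of the 38 had a summit within 3 kb of the start in OMM2.3 (NBN, MUS81, FANCE and FANCF), as 12.3% of protein-coding genes did. In 92.1, 14 had a summit there (36.8%), as 30.4% of protein-coding genes did, and NBN was the gene counted in both lines. Within 1 kb there were 3 genes in OMM2.3, NBN, MUS81 and FANCF, beside 4.21% of protein-coding genes. In 92.1 there were 2, RAD51D, whose summit lay 19 bp from the start, and FANCC, 696 bp from it, beside 13.4%. No gene had a summit within 1 kb in both lines. The MUS81 peak also lay in the window of CFL1, the FANCF peak in that of GAS2 and the RAD51D peak in that of FNDC8, so these peaks cannot be given to 1 gene. In all, 13 member peaks of OMM2.3 and 32 of 92.1 lay in the window of another protein-coding gene too.

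The sequence at OMM2.3 summits was richer in GC than the genes around them. With 100 bp on either side of the summit taken, the mean GC content was 45.2% ± 1.02 (SE over 76 peaks) in OMM2.3, against 41.2% for the windows those peaks lay in, a difference of 3.97 percentage points (interval 2.09 to 5.84). In 92.1 it was 41.6% ± 0.58 (SE over 254 peaks) against 40.7%, a difference of 0.911 points (−0.087 to 1.91). Over whole peaks the difference was 4.24 points in OMM2.3 and 1.35 in 92.1, and the interval of 92.1 then left out 0 (0.408 to 2.3). Against the surrounding 50 kb the difference was 3.75 points in OMM2.3 (1.965 to 5.536) and 0.802 in 92.1 (−0.176 to 1.78). Over all peaks at protein-coding genes it was 3.45 and 0.938. TC and GA pairs made up 11.95% of dinucleotides at OMM2.3 summits against 11.6% in the windows, and 11.7% against 11.6% in 92.1, differences of 0.316 ± 0.253 and 0.091 ± 0.1395 points (SE). Repeated sequence lay under 19 OMM2.3 peaks (25%, against 17.7% at protein-coding genes) and 34 of 92.1 (13.4%, against 11.4%), and ZRANB3 gave 7 of the 19.

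**Figure D5:**
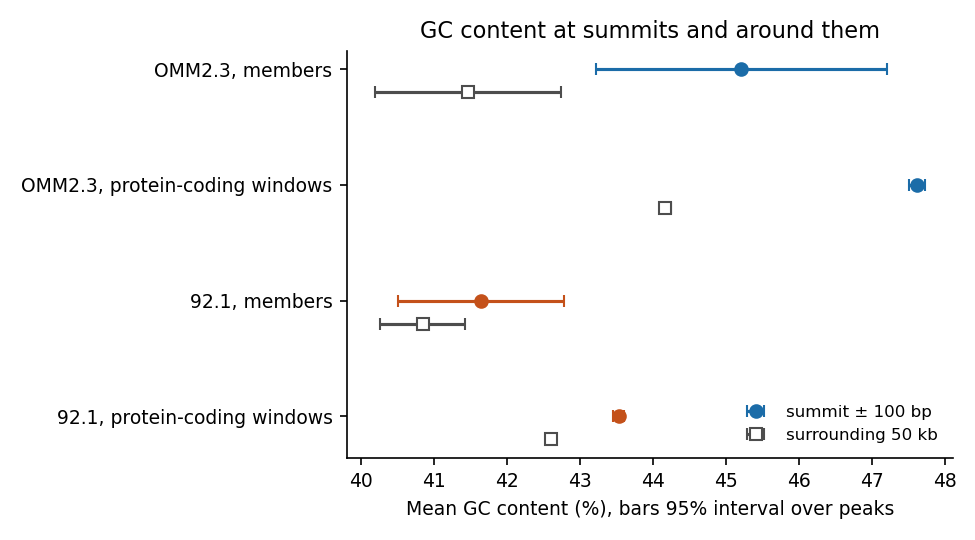
Mean GC content (x axis, percent) at summits with 100 bp on either side (filled circles) and of the surrounding 50 kb (open squares), for peaks at the 38 genes and at all protein-coding windows, in OMM2.3 (blue) and 92.1 (orange). Bars are 95% intervals over peaks. At the 38 genes, summits sat 3.75 points above their surroundings in OMM2.3 (interval 1.965 to 5.536). In 92.1 the difference was 0.802 points, with an interval that included 0 (−0.176 to 1.78).

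Other genes of recombination and crosslink repair, 46 by a list that leaves out the 38, gave a like picture. Of these, 25 had a peak in OMM2.3 (54.35%, genes of like length 53.9%) and 33 in 92.1 (71.7%, genes of like length 78.3%), at ratios to the flank level of 0.87 (interval 0.67 to 1.11) and 1.11 (0.947 to 1.295). ATR, the kinase of stalled forks, had 2 peaks in OMM2.3 and 8 in 92.1 beside flank levels of 3.47 and 7.54. Of 23 genes of end joining, the competing way of repairing breaks, 15 had a peak in OMM2.3 (65.2%, genes of like length 60.5%). In 92.1, 19 had a peak (82.6%, genes of like length 82.0%). Their ratios to the flank level were 1.08 (0.793 to 1.435) in OMM2.3 and 0.84 (0.664 to 1.05) in 92.1. No gene of either list had a peak with a q-value of at most 0.05.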

How the data were processed

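A3B and IgG libraries of OMM2.3 and 92.1 were sequenced in pairs of reads. The authors checked reads with FastQC 0.11.9, aligned them to GRCh38 with Bowtie2 2.2.5, dropped PCR duplicates and ran MACS2 2.2.7.1 at a p of 0.05 per line (versions from the submitters' processing notes and the methods). Mapping filters and read depth are not given in the sources used here. The deposited fold enrichment is a ratio of A3B fragments to local background with 1 added to each. The −log10 of the p-value and of the q-value, as deposited, belong to the summit, and the deposited score is derived from the −log10 p. Deposited peak coordinates and summit offsets were used as given.

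Windows were GENCODE version 44 gene bodies extended by 3 kb, and an overlap was 1 bp or more. Flanks left out assembly gaps. Fragment numbers were recovered from fold and −log10 p by the arithmetic of MACS2, within 0.002, for 99.8% of OMM2.3 and 99.96% of 92.1 peaks. Sequence was called repeated where 50% or more of the 32-mers within 100 bp of the summit occurred more than once in the genome. Shares have Wilson intervals and peak counts exact Poisson intervals, which leave out the error of the flank level. The counting steps were tested on simulated data. Peaks and flank levels or peak values are given for the 5 genes with most peaks and the 5 densest with at least 2, shared peaks, genes with none, the 5 highest peaks of each line, genes with a summit within 1 kb of the start in both lines, and BRCA1, BRCA2, PALB2, FANCD2, ATM and RAD51B; other genes are given by role. MUS81, FANCF, CFL1, GAS2, FNDC8, MFSD3 and the genes with a summit within 1 kb in 1 line, a peak on a coding exon or more peaks than under the shifts were singled out after their values were seen. The genes and lists were chosen with earlier results of these data known. Values of 1 planned gene and some sequences are not reported here. Software was Python 3.11.15, matplotlib 3.10.9, numba 0.67.0, scipy 1.17.1, pandas 2.3.3 and numpy 2.4.6.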

Additional observations from a re-analysis of the deposited data

Results flagged for a closer look

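The lines lay on opposite sides of the flank level. Peaks at the 38 genes stood at 0.775 times the flank level in OMM2.3 and at 1.07 times in 92.1, a difference that was not tested, since each line had 1 A3B library. The interval of 92.1 (0.941 to 1.21) included 1, and that of OMM2.3 (0.611 to 0.9705) did not. With flanks of 10 to 100 kb or with shifts the OMM2.3 interval also included 1. The ratios over all protein-coding genes lay on the same sides, at 0.952 in OMM2.3 and 1.01 in 92.1.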

How the results depend on the processing

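Of 67 alternatives over 11 results, 58 left a share, ratio or difference inside its interval or a count of genes within 1.5 times, 9 went further and 0 turned a called direction. A direction was called only for the OMM2.3 ratio to the flank level and the OMM2.3 GC difference, so a change of sign elsewhere could not count. With only peaks of q at most 0.05, 0 genes were hit in OMM2.3 and 0 in 92.1, and the ratio to the flank level was 0 in 92.1 and could not be given in OMM2.3, whose flanks held no such peak. With only peaks of p at most 0.001, 14 genes were hit in OMM2.3, 22 in 92.1 and 8 in both lines, and the 92.1 ratio was 0.934, while the difference from genes of like length in OMM2.3 went from −2.815 to 2.66 points, inside its interval. With the starts of all annotated transcripts, 30.3% of OMM2.3 and 26.0% of 92.1 peaks lay within 3 kb of a start, where the share of window length was not measured. Within 1 kb of the canonical start lay 0.787% of 92.1 peaks, against 3.79% at protein-coding genes. That region is 1.82% of the windows' length, so the 92.1 share was below that of length at 1 kb and above it at 3 kb. In OMM2.3 the share within 1 kb was 3.95%, against 2.89% at protein-coding genes. The OMM2.3 ratio was 0.863 with flanks of 10 to 100 kb, 0.825 with shifts, 0.908 at p of at most 0.001 and 0.716 without the 5 longest genes, and its interval then included 1. GC content over whole peaks in 92.1 was 1.35 points above the windows, with an interval that left out 0. The causes were not tested. No paired analysis was possible because there was 1 library to a group. Peaks of 3 to 9 fragments limit every count, and no library could be left out.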
